A study of Saccharomyces cerevisiae and Kluyveromyces lactis with 95 samples.

Results

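The genes described are 10 of peroxisomal fatty acid oxidation, POX1, FOX2, POT1, FAA2, PXA1, PXA2, ECI1, SPS19, PEX11 and CAT2, followed through an inhibition of protein kinase A (PKA) in the budding yeasts *Saccharomyces cerevisiae* and *Kluyveromyces lactis*. They were chosen by name for their place in the pathway, but with earlier results of these data known. They are 10 of the 6600 genes counted in *S. cerevisiae*. In *K. lactis* they are the 10 genes, of 5534 counted, that the deposited tables pair with these names. All 10 passed the filter on low counts in both species. Each sample was a culture in rich glucose medium that was divided during exponential growth into a portion given 3 µM 1-NM-PP1 and a portion given DMSO, the solvent, for 50 min. The PKA-AS strains carry gatekeeper mutations in the genes of all catalytic subunits of PKA, so that the ATP analog 1-NM-PP1 inhibits the kinase, and PKA-WT strains carry the unmutated kinase. The tested strains were PKA-AS with MSN2 and MSN4 deleted (ΔMsn2/4), with RPH1 and GIS1 deleted (ΔRph1/Gis1), with all these genes deleted, and with no such deletion, followed by PKA-WT strains with the same backgrounds. *S. cerevisiae* strains were W303 MATa, and *K. lactis*, in which 1 ortholog stands for Msn2 and Msn4 and 1 for Rph1 and Gis1, had PKA-WT cultures without deletions only. PKA-AS groups held 4 cultures each (3 in *K. lactis* with all deletions), *S. cerevisiae* PKA-WT groups held 3 each, and the *K. lactis* PKA-WT groups held 3 treated cultures and 2 DMSO cultures.

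In *S. cerevisiae* the breakdown of fatty acids takes place in the peroxisome alone. Long-chain acyl-CoAs enter through the Pxa1-Pxa2 transporter and medium-chain acids are activated inside by Faa2, after which Pox1, Fox2 and Pot1 carry out the oxidation cycle, Eci1 and Sps19 prepare unsaturated acids for it, and Cat2 hands the acetyl groups to carnitine for export. These *S. cerevisiae* genes are known to be repressed by glucose and induced by oleate through Oaf1 and Pip2, which bind an element with CGG and CCG at its ends, and through Adr1, and PKA is known to restrain Adr1 and the stress activators Msn2 and Msn4.

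The stretch upstream of the *S. cerevisiae* genes was searched for these sites, and the CGG-CCG matches are shown because they set the activated genes POT1, POX1 and SPS19 beside FAA2 and PEX11, which were not activated (values follow). The search took the 700 bases before each start codon from the RefSeq sequence of strain S288C (build R64), on both strands. CGG and CCG separated by 15 to 18 bases of any kind stood in 8 of the 10 promoters and in 13% of the 6005 promoters of that length, and capitals mark these end triplets, read toward the gene.
POT1: CGGggataatagtattaacaCCG
POX1: CGGtattagttgattaaactCCG
POX1, nearer match: CGGtcattagcggctaatagCCG
FOX2: CGGaagcctagttttaagtCCG
SPS19: CGGcgttaagtatatcaaactCCG
FAA2: CGGaccgtcagtctttaacgCCG
PEX11: CGGcatttatctcggagaacCCG

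The POT1 match lies on the minus strand at chrIX:41610-41632, 166 to 188 bases before the start codon of YIL160C (coding sequence chrIX:40191-41444). Those of POX1 (YGL205W, chrVII:108158-110404) lie on the plus strand at chrVII:107846-107868 and chrVII:107883-107905, that of FOX2 (YKR009C, chrXI:454352-457054) on the minus strand at chrXI:457337-457358, and that of SPS19 (YNL202W, chrXIV:259578-260456) on the plus strand at chrXIV:259412-259435. The FAA2 match (YER015W, chrV:184541-186775) is on the plus strand at chrV:184355-184377, and the PEX11 match (YOL147C, chrXV:47933-48643) on the minus strand at chrXV:48756-48778. The FAA2 match lies within an intron of BUD25, a gene on the other strand that overlaps the start of FAA2, and the other positions are intergenic in R64. None of the matches says that a factor binds there. FOX2 had another match, and PXA2 (YKL188C, chrXI:86225-88786) and ECI1 (YLR284C, chrXII:706198-707040) had 1 each. PXA1 (YPL147W, chrXVI:273255-275867) and CAT2 (YML042W, chrXIII:192788-194800) had none in this window. The Adr1 core TTGGAG or TTGGGG stood in 9 of the 10 promoters, all but that of PXA2, and in 37.9% of all promoters. The stress element CCCCT, bound by Msn2 and Msn4, stood in 3 of the 10 (POX1, ECI1 and SPS19) and in 44.5% of all promoters, and TAAGGGAT or TTAGGGAT, an element bound by Gis1, stood in 1 (CAT2) and in 3.63% of all. None of the words searched contains another.

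The libraries counted 3′ ends of mRNA, and levels below are counts scaled to the TMM-normalized library total (CPM), so that they compare cultures for 1 gene and are not scaled by length. The 59 *S. cerevisiae* libraries used, from 56 cultures, held 188289 to 4715139 counts on genes and the 35 *K. lactis* libraries 815372 to 4117520. The shallowest was ΔMsn2/4 with 1-NM-PP1 culture 3 of *S. cerevisiae*. In *K. lactis*, ΔMsn2/4 with 1-NM-PP1 culture 3 stood apart, with a median correlation of 0.870 to its own group. The LFCs over DMSO that it moved most are given with and without it, and the medians include it. In *S. cerevisiae*, the ΔMsn2/4 cultures with 1-NM-PP1 had median correlations of 0.867 to 0.890 to their own group, and PKA-WT culture 3 with all deletions and 1-NM-PP1 had the lowest value, 0.852. The deletions could be checked in part only. MSN2 had 0 to 4 counts in the *S. cerevisiae* PKA-AS strains without it and 3 to 42 counts in the other PKA-AS strains. MSN4 had 0 to 69 and 11 to 223 counts in the same order, so the ranges of both genes overlapped. RPH1 had 0 counts in every *S. cerevisiae* group, also where it is intact. GIS1 had 0 to 26 counts in the PKA-AS strains without it and 0 to 60 counts in the other PKA-AS strains. A 3′ tag outside the deleted part checks nothing. In *K. lactis* the Msn2/4 ortholog had 0 to 38 counts in the strains without it and 3 to 129 counts in the other PKA-AS strains. The Rph1/Gis1 ortholog had 3.58 to 5.99 CPM in ΔRph1/Gis1 cultures with 1-NM-PP1, against 15.6 to 20.0 CPM in treated cultures without deletions, but 6.15 to 14.3 CPM in ΔRph1/Gis1 DMSO cultures, against 8.28 to 12.9 CPM in DMSO cultures without deletions, so the DMSO groups overlapped. The *S. cerevisiae* libraries carried the a-mating-type mRNAs MFA2 (154 to 5878 counts) and STE2, with MF(ALPHA)1 and STE3 at 0 to 10 and 0 to 4 counts. The parent of the *K. lactis* strains is given as MATa, and the orthologs there had 0 to 3 counts for STE2, 0 to 27 counts for STE3 and 51 to 533 counts for STE6. The *K. lactis* genes are named after their *S. cerevisiae* orthologs, and which mating type each one marks in *K. lactis* was not tested, so these counts do not check the label.

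The first comparison asks how the pathway responded to PKA inhibition where Msn2/4 and Rph1/Gis1 were intact. In *S. cerevisiae* PKA-AS cells, 6 of the 10 genes were activated (LFC, the log2 fold change of 1-NM-PP1 over DMSO, above 2 with an adjusted p under 0.01 in edgeR), against 9.72% of all 5779 genes tested. The 6 were POT1, SPS19, POX1, CAT2, ECI1 and FOX2, and none of the 10 was repressed (LFC below -2), against 12.5% of all genes. PXA1 and PXA2 rose by less, so that 8 of 10 were at least weakly activated (LFC above 1), against 18.4% of all genes. The median LFC of the 10 was 2.76, and that of all genes was 0.00.

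POT1, the thiolase that ends each oxidation cycle, gave the widest separation. It had 688, 602, 659 and 809 CPM in the 1-NM-PP1 cultures (cultures 1, 2, 3 and the one labelled 2017), against 1.00, 1.16, 0.894 and 2.29 CPM in the DMSO cultures. Only PKA-AS without deletions had a culture with that label. Every treated culture lay far above every control culture. The LFC was 9.07 ± 0.76 (SE, adjusted p 4.23e-14), and since the controls summed to 10 counts and the treated cultures to 5298, the ratio of levels was 575 with a 95% exact counting interval of 312 to 1199. Such intervals cover counting error only.

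POX1, the acyl-CoA oxidase that opens the cycle, remained a rare mRNA with 18, 9.55, 12.7 and 12.3 CPM in 1-NM-PP1 cultures, against 1.00, 1.16, 0.298 and 0 CPM in DMSO cultures. The groups did not overlap, and the LFC was 4.32 ± 0.70 (adjusted p 1.18e-06), with a ratio of 22.1 (9.18 to 69.6) over 102 and 5 counts. FOX2, the enzyme that hydrates and then oxidizes the intermediates between Pox1 and Pot1, had 39.0, 21.1, 28.9 and 23.5 CPM with 1-NM-PP1, against 5.51, 2.89, 5.07 and 3.82 CPM with DMSO. Its LFC was 2.66 ± 0.40 (adjusted p 1.76e-07), again with no overlap.

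The enzymes for unsaturated acids moved with the cycle. SPS19, the dienoyl-CoA reductase, had 185, 337, 267 and 240 CPM in 1-NM-PP1 cultures, against 5.01, 12.7, 9.84 and 14.5 CPM in DMSO cultures. The lowest treated culture was above the highest control by a wide margin (LFC 4.63 ± 0.61, adjusted p 1.49e-08). ECI1, the enoyl-CoA isomerase, had 137, 380, 260 and 212 CPM with 1-NM-PP1, against 22.5, 26.0, 54.3 and 32.1 CPM with DMSO. Its groups were also apart (LFC 2.86 ± 0.74, adjusted p 0.00113), with culture 1 lowest in both.

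CAT2, the carnitine acetyltransferase, had 90.4, 31.2, 47.1 and 62.2 CPM in 1-NM-PP1 cultures, against 7.01, 6.36, 1.79 and 6.88 CPM in DMSO cultures (LFC 3.44 ± 0.66, adjusted p 2.12e-05). The groups did not overlap, though treated cultures spread more widely than for POT1. The subunits of the acyl-CoA transporter changed less: PXA1 had 34.0 to 53.4 CPM with 1-NM-PP1, against 10.1 to 23.0 CPM with DMSO (LFC 1.57 ± 0.40, adjusted p 0.00085). PXA2 had 12.9 to 25.0 CPM with 1-NM-PP1, against 3.06 to 8.09 CPM with DMSO (LFC 1.58 ± 0.34, adjusted p 0.000103). Both were weakly activated without overlap.

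The remaining genes did not pass the test. FAA2, the peroxisomal acyl-CoA synthetase, had 3.5, 4.52, 5.39 and 6.45 CPM in 1-NM-PP1 cultures, against 5.01, 2.89, 4.47 and 8.41 CPM in DMSO cultures, an LFC of -0.04 ± 0.42 (adjusted p 0.991). It overlaps BUD25 at its start in the R64 annotation. SMU2, PUT7 and VPS71, on the opposite strand, lie 50, 67 and 112 bases downstream of POT1, ECI1 and CAT2. The strand setting of the counting is not given in the sources used here, so reads of any of these genes may be shared. PEX11, a membrane protein that drives the division of peroxisomes, had 128 to 170 CPM with 1-NM-PP1, against 89.2 to 131 CPM with DMSO, and the groups overlapped (LFC 0.46 ± 0.26, adjusted p 0.138). In bulk cultures, more RNA per cell and more cells with the RNA cannot be told apart.

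**Figure D1:**
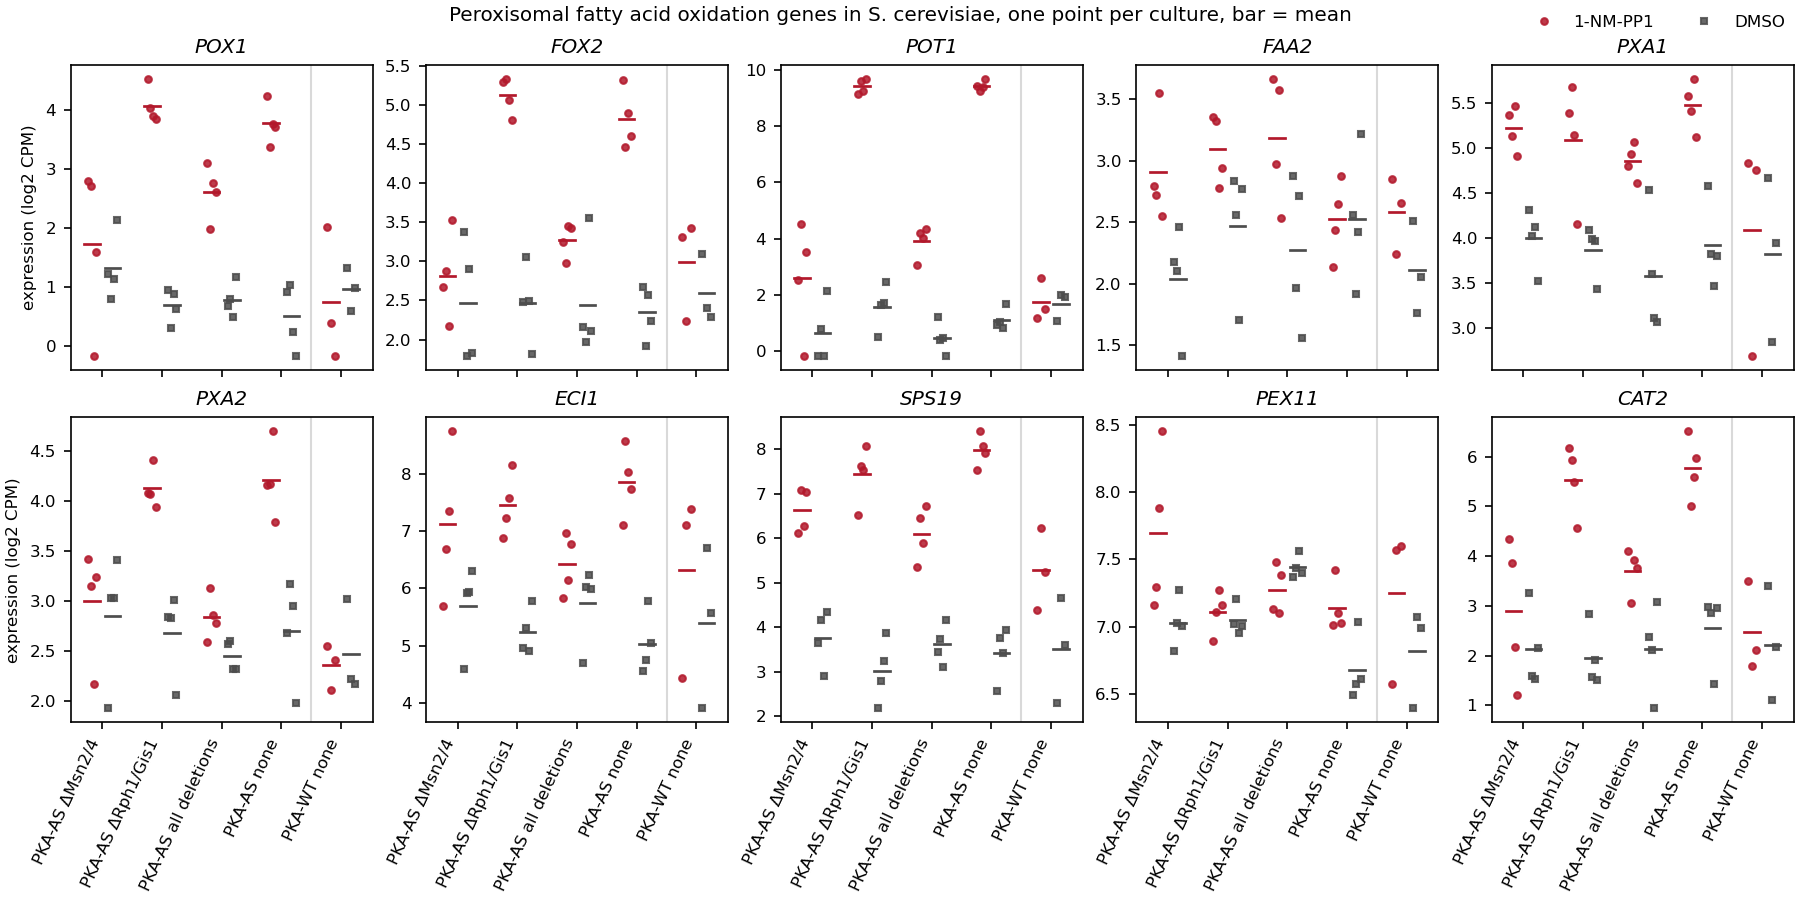
Levels of the 10 genes in *S. cerevisiae*, 1 panel per gene, as log2 CPM (prior count 2) on the y axis, in PKA-AS strains with ΔMsn2/4, ΔRph1/Gis1, all deletions and none and in PKA-WT without deletions on the x axis. Red circles are 1-NM-PP1 cultures, grey squares are DMSO cultures and bars are means. POT1 cultures with 1-NM-PP1 lay between 555 and 809 CPM in both PKA-AS strains that kept Msn2/4 and between 0 and 22.1 CPM in both that lacked them.

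The cultures with unmutated PKA show what 1-NM-PP1 did without the mutated kinase. In *S. cerevisiae* PKA-WT, edgeR called 0 of the 10 genes in each of the 4 backgrounds, where 0.156% (all deletions), 0.138% (ΔMsn2/4), 0.104% (ΔRph1/Gis1) and 0.0865% (none) of all genes were activated. The number of the 10 at an unadjusted p under 0.05 was 3, 2, 1 and 1 in the same order of backgrounds, and DESeq2 called 0 in each. POT1 had 1.36, 5.12 and 1.97 CPM in 1-NM-PP1 cultures without deletions, against 1.21, 3.14 and 2.90 CPM in their DMSO cultures (LFC 0.27 ± 0.83, adjusted p 0.910). The groups overlapped throughout. SPS19 had 19.9, 74.3 and 37.0 CPM with 1-NM-PP1, against 4.02, 24.5 and 11.2 CPM with DMSO, an LFC of 1.76 ± 0.65 that missed the threshold (adjusted p 0.386). Within each culture number the treated portion was the higher, but culture 2 with DMSO exceeded culture 1 with 1-NM-PP1. In PKA-WT with ΔMsn2/4, ΔRph1/Gis1 and all deletions the LFC of SPS19 was 0.90, 1.45 and 1.41 (edgeR adjusted p 0.793, 0.441 and 0.307). That of POT1 was 2.41, 0.35 and 1.72 in the same order (edgeR adjusted p 0.532, 0.905 and 0.370). The difference between the PKA-AS and PKA-WT responses was not itself tested. These strains differ in more than the kinase alleles, and the paper describes an NHP6A-IRFP nuclear marker in the *S. cerevisiae* PKA-AS base strain. In DMSO, PKA-AS against PKA-WT gave 0 of 10 in edgeR (0.0% of all genes, 0 of the 10 at an unadjusted p under 0.05, and 0 in DESeq2).

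The second comparison asks what remained of the response without Msn2/4. In *S. cerevisiae* PKA-AS ΔMsn2/4 cells, 2 of the 10 genes were activated, POT1 and SPS19, against 2.8% of all genes, and at least weakly activated were the same 2, against 7.27%. The median LFC of the 10 was 1.31, and that of all genes was 0.03. POT1 had 4.91, 22.1, 0 and 10.7 CPM in 1-NM-PP1 cultures, against 0, 0.854, 0 and 3.54 CPM in DMSO cultures. The groups overlapped through culture 3, the shallowest library, and no treated culture came near the 602 CPM or more of cells without deletions. The LFC was 3.45 ± 0.81 (adjusted p 0.000723), and the call was lost without culture 2 with 1-NM-PP1 (LFC 2.66, adjusted p 0.0193) and kept without culture 1, 3 or 4 (LFC 3.47 to 3.76). It was also lost when only the groups compared were fitted (LFC 3.38, adjusted p 0.0459). SPS19 had 68.2, 134, 75.9 and 131 CPM with 1-NM-PP1, against 11.7, 17.1, 6.62 and 19.5 CPM with DMSO (LFC 2.91 ± 0.58, adjusted p 9.17e-05), without overlap, and its LFC was 2.68 to 3.10 with any 1 culture left out.

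The other members gave smaller values in ΔMsn2/4 cells. FOX2 had 5.49, 6.47, 3.62 and 10.7 CPM with 1-NM-PP1, against 9.48, 2.56, 6.62 and 2.66 CPM with DMSO, and the groups overlapped (LFC 0.40 ± 0.43, adjusted p 0.546). CAT2 had 19.4, 13.7, 3.62 and 1.42 CPM with 1-NM-PP1, against 8.75, 2.13, 1.98 and 3.54 CPM with DMSO, with treated cultures on both sides of the controls (LFC 1.46 ± 0.70, adjusted p 0.123). ECI1 had 50.8, 102, 163 and 430 CPM with 1-NM-PP1, against 23.3, 59.3, 60.2 and 77.9 CPM with DMSO (LFC 1.75 ± 0.72, adjusted p 0.0630). Each treated portion lay above the DMSO portion of the same number, but the groups overlapped. POX1 (1.39), PXA1 (1.23), FAA2 (0.84), PEX11 (0.75) and PXA2 (0.28) had LFCs with adjusted p values of 0.132, 0.0181, 0.173, 0.0241 and 0.632.

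The test of the difference itself is the interaction of 1-NM-PP1 with the deletion. For ΔMsn2/4 in *S. cerevisiae* it was called (adjusted p under 0.01) for 2 of the 10 genes, both negative, against 8.57% of all genes in either direction and 3.51% in the negative one. POT1 had an interaction of -5.62 ± 1.41 (adjusted p 0.00405) and FOX2 of -2.26 ± 0.58 (adjusted p 0.00493). Each of these calls rested on single cultures. That of POT1 was lost without ΔMsn2/4 DMSO culture 2 (-5.72, adjusted p 0.0169) or culture 4 (-4.37, adjusted p 0.197). That of FOX2 was lost without ΔMsn2/4 DMSO culture 1 or 3, ΔMsn2/4 1-NM-PP1 culture 1 or 2, or culture 2 with DMSO or culture 1 with 1-NM-PP1 of the strain without deletions (-1.84 to -2.22, adjusted p 0.0108 to 0.0316). POX1 (-2.93, adjusted p 0.0527), CAT2 (-1.97, adjusted p 0.197), SPS19 (-1.72, adjusted p 0.163) and PXA2 (-1.30, adjusted p 0.0741) missed the threshold. Fitting only the groups compared ended both calls (POT1 -5.62, adjusted p 0.0104, and FOX2 -2.26, adjusted p 0.0214), and that of FOX2 was also lost without the 2017 cultures (-2.29, adjusted p 0.0105). With the culture as a block, SPS19 passed as well (-1.76, adjusted p 0.000384).

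Because the DMSO counts of POT1 were near 0, the treated cultures were also compared with each other, a comparison chosen after the data were seen. In 1-NM-PP1, 4 of the 10 genes differed in ΔMsn2/4 from the strain without deletions, all lower, against 20.3% of all genes in either direction and 9.66% lower. POT1 averaged 9.41 ± 9.50 CPM in ΔMsn2/4 cultures and 690 ± 87.6 CPM in cultures without deletions (SD, n = 4 each), an LFC of -5.95 ± 0.63 (adjusted p 2.75e-10 in edgeR). CAT2 averaged 9.52 ± 8.46 CPM and 57.7 ± 25.2 CPM in the same groups (LFC -2.38 ± 0.62, edgeR adjusted p 0.00265). FOX2 averaged 6.56 ± 2.98 CPM and 28.1 ± 7.94 CPM (LFC -2.01 ± 0.39, edgeR adjusted p 7.42e-05). None of these 3 overlapped between the strains. PXA2 was the fourth (LFC -1.13 ± 0.34, adjusted p 0.00917), a call lost when any of 7 of the 8 cultures was left out (-0.93 to -1.26, adjusted p 0.0123 to 0.0515; the exception was the 2017 culture), and that of CAT2 was lost without ΔMsn2/4 culture 4 (-2.01, adjusted p 0.0170) or culture 1 without deletions (-2.08, adjusted p 0.0140). SPS19 averaged 102 ± 35.1 CPM in ΔMsn2/4 and 257 ± 63.2 CPM without deletions and missed the threshold (LFC -1.31, edgeR adjusted p 0.0538), as did POX1 (LFC -1.56, adjusted p 0.0304). DESeq2 called 5 of the 10, POX1 among them (LFC -1.54, adjusted p 0.00864). Fitting only the groups compared ended the calls of CAT2 (-2.37, adjusted p 0.0151) and PXA2 (-1.13, adjusted p 0.0351), and that of PXA2 was also lost with no filter on low counts (-1.06, adjusted p 0.0147).

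In DMSO, ΔMsn2/4 against no deletion gave 0 of 10 calls in edgeR (0.0692% of all genes, 0 of the 10 at an unadjusted p under 0.05 and 0 in DESeq2). At these low DMSO counts, which were 0 to 4 for POT1 and 2 to 4 for POX1 in ΔMsn2/4, a small difference was not detectable.

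In ΔRph1/Gis1 cells of *S. cerevisiae* the same enzymes rose. Activated were 6 of 10, against 8.31% of all genes, and at least weakly activated 8 of 10, against 17.3%, with a median LFC of 2.51 beside 0.09 for all genes. POT1 had 555, 775, 605 and 802 CPM in 1-NM-PP1 cultures, against 0.521, 2.24, 2.38 and 4.61 CPM in DMSO cultures (LFC 8.16 ± 0.71, adjusted p 1.52e-13). POX1 had 13.6 to 22.2 CPM with 1-NM-PP1, against 0.344 to 1.04 CPM with DMSO, a ratio of 26.6 (12.6 to 67.3) over 159 and 7 counts. FOX2 had 27.2 to 39.4 CPM, against 2.64 to 7.40 CPM, SPS19 91.1 to 266 CPM, against 3.65 to 13.8 CPM, and CAT2 22.9 to 71.1 CPM, against 1.98 to 6.25 CPM. All of these groups were apart. ECI1 had 116 to 284 CPM with 1-NM-PP1, against 29.0 to 54.1 CPM with DMSO (LFC 2.28 ± 0.73, adjusted p 0.00784), a call lost without any one of the DMSO cultures or of 1-NM-PP1 cultures 3 and 4 (LFC 2.00 to 2.49, adjusted p 0.0111 to 0.0260). The interaction with ΔRph1/Gis1 gave 0 of 10 in edgeR (0.398% of all genes, 0 at an unadjusted p under 0.05 and 0 in DESeq2), with -0.91 for POT1 (adjusted p 0.981). Between the treated cultures of ΔRph1/Gis1 and no deletion there were 0 of 10 calls (0.0519% of all genes, 0 at an unadjusted p under 0.05 and 0 in DESeq2), and between their DMSO cultures 0 of 10 (1.25% of all genes, 0 and 0 by the same measures).

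With all 4 factors deleted, POT1, POX1 and SPS19 were activated, 3 of 10 against 1.4% of all genes, and no further gene was weakly activated (3 of 10, against 5.26%). The median LFC of the 10 was 1.13, and that of all genes 0.03. POT1 had 7.51, 17.5, 15.5 and 19.6 CPM in 1-NM-PP1 cultures, against 1.44, 0.430, 0.515 and 0 CPM in DMSO cultures, without overlap (LFC 4.59 ± 0.82, adjusted p 1.73e-05, ratio 24.9 with an interval of 9.56 to 92.2 over 194 and 4 counts). POX1 had 3.06 to 7.72 CPM with 1-NM-PP1, against 0.515 to 1.37 CPM with DMSO, a ratio of 7.01 (3.09 to 19.7). Its LFC of 2.64 ± 0.70 (adjusted p 0.00303) lost the call without DMSO culture 2 or 3 or 1-NM-PP1 culture 1 (2.42 to 2.65, adjusted p 0.0126 to 0.0165). SPS19 had 39.7, 86.5, 58.6 and 105 CPM with 1-NM-PP1, against 10.1, 12.5, 7.73 and 17.1 CPM with DMSO (LFC 2.61 ± 0.57, adjusted p 0.000393). FOX2 overlapped, with 6.99 to 10.1 CPM with 1-NM-PP1, against 3.01 to 10.8 CPM with DMSO, where culture 3 alone was above 3.59 CPM.

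The interaction with all deletions was called for FOX2 alone (-1.91 ± 0.55, adjusted p 0.00870), 1 of 10 against 14.7% of all genes, and 7.75% in the negative direction. The call was lost when any of 11 of the 16 cultures was left out (adjusted p 0.0101 to 0.116), with the smallest value, -1.25, without DMSO culture 3 of the deletion strain. It was also lost when only the groups compared were fitted (-1.90, adjusted p 0.0105) and without the 2017 cultures (-1.94, adjusted p 0.0166). POT1 stood at -4.48 (adjusted p 0.0340), ECI1 at -2.20 (adjusted p 0.110) and SPS19 at -2.02 (adjusted p 0.0595), and all 3 passed with the replicate block (-4.47, -2.15 and -2.07, adjusted p 0.00999, 0.00125 and 2.85e-05) and with only the groups compared (-4.49, -2.20 and -2.03, adjusted p 0.00247, 0.00417 and 0.00412). DESeq2 called POT1 too (-4.44, adjusted p 0.00112). In the treated cultures, 5 of 10 were lower than without deletions, against 21.2% of all genes in either direction and 10.7% lower. POT1 averaged 15 ± 5.29 CPM with all deletions and 690 ± 87.6 CPM without (LFC -5.53 ± 0.60, edgeR adjusted p 4.55e-10), followed by CAT2 (LFC -2.17), SPS19 (LFC -1.83), FOX2 (LFC -1.66) and PXA2 (LFC -1.51) with adjusted p values of 0.00391, 0.00616, 0.00034 and 0.000304. Leaving out deletion culture 1, 2 or 3 or culture 2 or 3 without deletions ended the call of SPS19 (-1.63 to -1.93, adjusted p 0.0119 to 0.0314), as did leaving out the 2017 cultures (-1.86, adjusted p 0.0107), and leaving out deletion culture 2, 3 or 4 or culture 1 without deletions ended that of CAT2 (-1.87 to -2.23, adjusted p 0.0106 to 0.0210). The test of the response with all deletions against that of ΔMsn2/4 called 0 of the 10 (edgeR, 0.381% of all genes, 1 at an unadjusted p under 0.05, 0 in DESeq2). In DMSO the strain with all deletions gave 0 of 10 against no deletion (0.917% of all genes, 1 and 0 by the same measures).

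**Figure D2:**
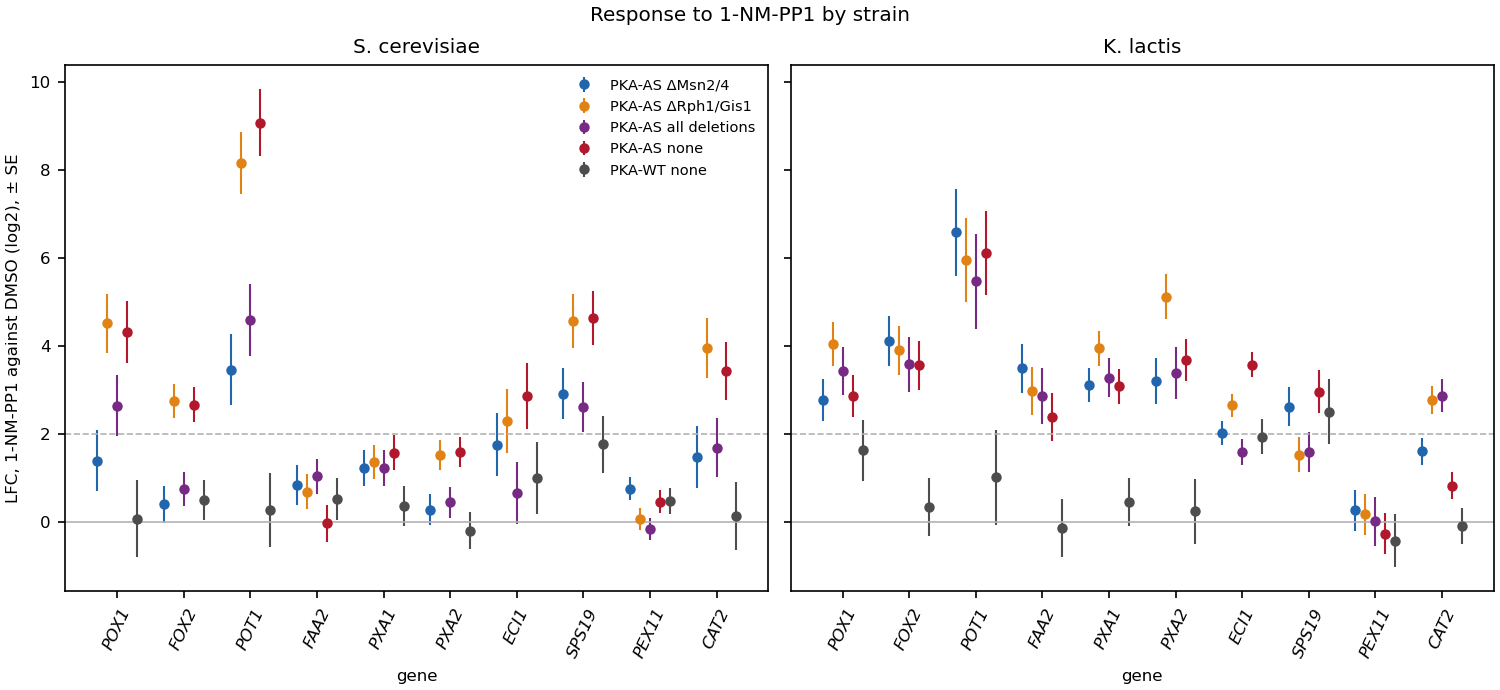
LFC of 1-NM-PP1 over DMSO (y axis, log2) for each of the 10 genes (x axis) in the PKA-AS strains and in PKA-WT without deletions, with *S. cerevisiae* on the left and *K. lactis* on the right. Points are edgeR values, error bars are SE and the dashed line is the LFC of 2 above which a gene could be called activated. In *S. cerevisiae* POT1 stands at 9.07 without deletions and 3.45 in ΔMsn2/4, and in *K. lactis* at 6.11 and 6.57. Without treated culture 3 of *K. lactis* ΔMsn2/4, which stood apart, the last value is 4.87.

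In *K. lactis* PKA-AS cells without deletions, 8 of the 10 orthologs were activated, against 8.46% of the 5271 genes tested, and the remaining members were CAT2 and PEX11 (8 of 10 at least weakly activated, against 18%). The median LFC was 3.02, beside -0.04 for all genes. POT1 (KLLA0F10879g) had 4159, 2645, 3776 and 1307 CPM in 1-NM-PP1 cultures (cultures 1, 2, 3 and the one labelled 2017), against 10.0, 21.5, 96.4 and 46.3 CPM in DMSO cultures. The groups were far apart (LFC 6.11 ± 0.96, adjusted p 2.7e-06), and the DMSO level, unlike in *S. cerevisiae*, was well above 0 counts in each culture. POX1 (KLLA0F09933g) had 31.6 to 60.8 CPM with 1-NM-PP1, against 4.19 to 10.5 CPM with DMSO (LFC 2.86 ± 0.49, adjusted p 9.12e-06). FOX2 (KLLA0E13817g) had 466, 567, 545 and 320 CPM with 1-NM-PP1, against 20.6, 46.1, 58.0 and 37.9 CPM with DMSO (LFC 3.56 ± 0.55, adjusted p 2.27e-06), so that all enzymes of the cycle rose without overlap.

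The mRNAs of FAA2 and of both transporter subunits were activated as well. FAA2 (KLLA0B11572g) had 485, 503, 587 and 309 CPM with 1-NM-PP1, against 43.2, 85.6, 145 and 89.1 CPM with DMSO (LFC 2.38 ± 0.54, adjusted p 0.000375). The lowest treated culture lay above the highest control. PXA1 (KLLA0F11484g) had 51.1, 106, 83.5 and 97.2 CPM, against 6.13, 12.0, 11.3 and 11.1 CPM (LFC 3.08 ± 0.40, adjusted p 7.81e-08). PXA2 (KLLA0B02563g) had 17.2, 21.4, 17.7 and 24.9 CPM, against 1.61, 1.20, 1.51 and 1.74 CPM (LFC 3.69 ± 0.48, adjusted p 9.01e-08). The transporter subunits were thus higher in each treated culture than in any control.

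Of the enzymes for unsaturated acids, ECI1 (KLLA0C04686g) had 96.6, 80.7, 79.2 and 60.0 CPM with 1-NM-PP1, against 5.80, 5.39, 9.04 and 6.61 CPM with DMSO (LFC 3.57 ± 0.29, adjusted p 1.02e-11). SPS19 (KLLA0D18909g) had 6.66, 12.4, 19.1 and 21.6 CPM with 1-NM-PP1, against 1.29, 0.599, 3.01 and 2.78 CPM with DMSO (LFC 2.96 ± 0.49, adjusted p 6.63e-06). Neither pair of groups overlapped. CAT2 (KLLA0A02123g) had 30.5, 28.0, 33.2 and 32.3 CPM, against 18.1, 15.6, 14.3 and 21.6 CPM, which did not overlap but missed the threshold (LFC 0.82 ± 0.31, adjusted p 0.0234). PEX11 (KLLA0E01871g) had 7.22, 5.09, 6.36 and 17.9 CPM, against 14.8, 13.2, 3.01 and 13.6 CPM, and overlapped (LFC -0.27 ± 0.47, adjusted p 0.654).

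**Figure D3:**
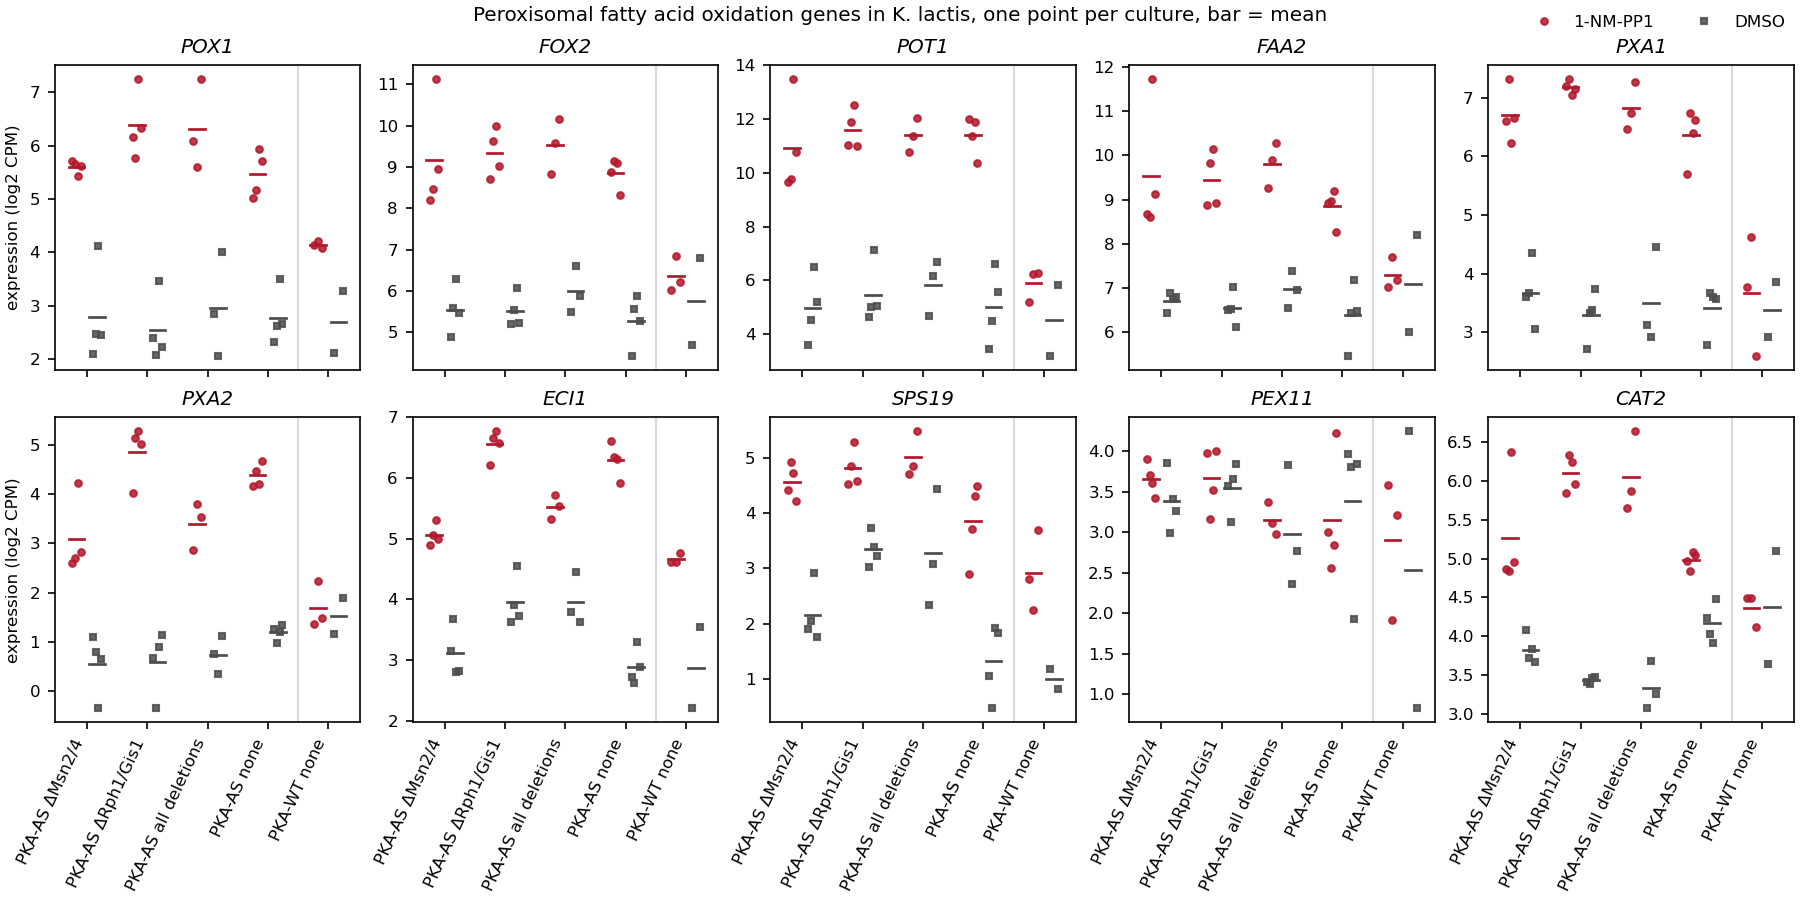
Levels of the 10 orthologs in *K. lactis*, 1 panel per gene, as log2 CPM (prior count 2) on the y axis, by strain on the x axis (PKA-AS with ΔMsn2/4, ΔRph1/Gis1, all deletions and none, then PKA-WT without deletions). Red circles are 1-NM-PP1 cultures, grey squares are DMSO cultures and bars are means. Treated POT1 cultures lie at 801 CPM or more in every PKA-AS strain, and ΔMsn2/4 culture 3 is the highest of all at 11518 CPM.

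Deletion of the *K. lactis* Msn2/4 ortholog left 8 of 10 activated, against 7.32% of all genes, and 9 of 10 at least weakly activated, against 16.7%, with a median LFC of 2.94 beside -0.01. POT1 had 801, 863, 11518 and 1762 CPM in 1-NM-PP1 cultures, against 11.3, 22.4, 88.8 and 35.4 CPM in DMSO cultures. Culture 3, the library that stood apart, was the highest in both groups. The LFC was 6.57 ± 0.98 (adjusted p 1.23e-06) and 4.87 without that treated culture. The same culture was the highest for FOX2 (291, 350, 2229 and 489 CPM with 1-NM-PP1) and FAA2 (405, 390, 3377 and 562 CPM), whose LFCs were 2.96 and 2.12 without it and 4.10 and 3.49 with it. The LFC of PXA2 was 3.19 with that culture and 2.73 without it. Each of these genes exceeded an LFC of 2 either way. ECI1 had 29.1, 32.7, 38.9 and 31.1 CPM with 1-NM-PP1, against 8.08, 11.9, 6.20 and 6.24 CPM with DMSO, an LFC of 2.02 ± 0.27 that fell below 2 without DMSO culture 3, DMSO culture 4 or 1-NM-PP1 culture 3 (1.90 to 1.95). CAT2 had 28.4, 27.8, 82.5 and 30.4 CPM, against 16.2, 12.4, 13.4 and 12.0 CPM (LFC 1.60 ± 0.31, adjusted p 5.75e-05), and the LFC was 1.10 (adjusted p 0.000732) without culture 3.

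The interaction of 1-NM-PP1 with ΔMsn2/4 in *K. lactis* was called for 0 of 10 genes in edgeR, against 0.0379% of all genes, with 1 of the 10 at an unadjusted p under 0.05 and 0 in DESeq2. Between the treated cultures ECI1 alone was lower in ΔMsn2/4 (LFC -1.27 ± 0.25, adjusted p 0.00548, 1 of 10 against 0.417% of all genes), a call lost without ΔMsn2/4 culture 1, 2 or 4 or culture 1, 2 or 3 without deletions (-1.16 to -1.27, adjusted p 0.0147 to 0.0438), with RLE scaling (-1.27, adjusted p 0.0103) and with only the groups compared (-1.27, adjusted p 0.155). In DMSO edgeR called 0 of 10 (0.0% of all genes, 0 at an unadjusted p under 0.05 and 0 in DESeq2).

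Without the *K. lactis* Rph1/Gis1 ortholog, 8 of 10 were activated, against 6.62% of all genes, and 9 of 10 at least weakly, against 15.7%, with a median LFC of 3.43 beside 0.01. CAT2 was among the activated: it had 56.9, 80.3, 75.3 and 61.7 CPM in 1-NM-PP1 cultures, against 9.85, 9.66, 10.2 and 10.4 CPM in DMSO cultures (LFC 2.77 ± 0.32, adjusted p 1.36e-08). Each treated culture was above the 28.0 to 33.2 CPM of treated cultures without deletions. SPS19 passed only as weakly activated (LFC 1.53 ± 0.40, adjusted p 0.00175), with 22.2 to 38.0 CPM with 1-NM-PP1, against 7.38, 12.4, 9.67 and 8.57 CPM with DMSO. Its DMSO level was itself higher than without deletions, where it was 0.599 to 3.01 CPM (LFC 2.30 ± 0.50, adjusted p 0.00500, the 1 call of 10 in DMSO against 1.82% of all genes). That call was lost without DMSO culture 2 or 3 of ΔRph1/Gis1 or culture 1, 2 or 2017 without deletions (2.06 to 2.62, adjusted p 0.0111 to 0.0419), and without all 2017 cultures (2.59, adjusted p 0.0115). DESeq2 called ECI1 there as well (1.19, adjusted p 0.00792). PXA2 had the largest LFC after POT1 (5.12 ± 0.51, adjusted p 7.68e-10), with 15.6 to 38.0 CPM, against 0 to 1.43 CPM. The interaction was called for 0 of 10 in edgeR (0.36% of all genes, 3 at an unadjusted p under 0.05), and DESeq2 called 1, CAT2 (1.96, adjusted p 0.00706). CAT2 had 1.95 in edgeR (adjusted p 0.0225), and passed with only the groups compared (1.87, adjusted p 0.00131). Between the treated cultures 0 of 10 were called (0.0759% of all genes, 4 at an unadjusted p under 0.05, 0 in DESeq2).

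With both *K. lactis* orthologs deleted, 7 of 10 were activated, against 4.67% of all genes, and 9 of 10 at least weakly, against 11.3%, with a median LFC of 3.07 beside -0.08. POT1 had 1745, 2667 and 4194 CPM with 1-NM-PP1, against 24.6, 69.8 and 102 CPM with DMSO (LFC 5.46 ± 1.07, adjusted p 0.000106). CAT2 had 49.5, 57.9 and 99.3 CPM, against 7.61, 12.0 and 8.77 CPM (LFC 2.87 ± 0.37, adjusted p 1.75e-07). Its interaction of 2.05 missed the threshold (edgeR adjusted p 0.0119) and passed in DESeq2 (2.07, adjusted p 0.00481). ECI1 had 39.5, 51.8 and 45.5 CPM, against 13.1, 21.2 and 11.5 CPM (LFC 1.58 ± 0.30, adjusted p 7.09e-05). Its interaction, -1.99 ± 0.41 (adjusted p 0.00424), was the 1 call of 10, against 1.04% of all genes. The call was lost when any of 7 of the 14 cultures was left out (DMSO culture 2 or 1-NM-PP1 culture 1 or 3 of the deletion strain, or DMSO culture 1, 2 or 2017 or 1-NM-PP1 culture 1 without deletions), with values of -1.72 to -1.99 and adjusted p 0.0109 to 0.0252, and with only the groups compared (-1.99, adjusted p 0.0202). SPS19 in DMSO was again higher than without deletions, with 4.26, 7.70 and 20.8 CPM, against 1.29, 0.599, 3.01 and 2.78 CPM (LFC 2.47 ± 0.53, adjusted p 0.00451, 1 of 10 against 1.57% of all genes). The call was lost without the culture at 20.8 CPM (1.60, adjusted p 0.149) and without culture 1 or 2 of the strain without deletions (2.27 and 2.23, adjusted p 0.0359 and 0.0222), and with only the groups compared (2.48, adjusted p 0.153). Between treated cultures 0 of 10 were called (0.835% of all genes, 5 at an unadjusted p under 0.05, 0 in DESeq2), and the test of the response against that of ΔMsn2/4 called 0 of the 10 (edgeR, 0.228% of all genes, 1 and 0 by the same measures).

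In *K. lactis* PKA-WT cultures 0 of 10 genes were activated in edgeR, against 1.06% of all genes, with 3 at an unadjusted p under 0.05 and 0 in DESeq2. ECI1 alone passed as weakly activated, 1 of 10 against 2.37%, with 23.7, 23.8 and 26.2 CPM in 1-NM-PP1 cultures, against 3.81 and 10.8 CPM in DMSO cultures (LFC 1.93 ± 0.40, adjusted p 0.00166). The groups did not overlap, but the value rested on the 2 controls: the call was lost without DMSO culture 1 (LFC 1.18, adjusted p 0.135), and the LFC was 2.67 (adjusted p 0.000519), past the mark for activated, without DMSO culture 2, in fits that assume the lone control to vary like the other groups. SPS19 had 6.26, 3.96 and 12.1 CPM, against 1.47 and 0.984 CPM, and missed the threshold (LFC 2.5 ± 0.74, adjusted p 0.0209). POX1 missed it as well, with 16.1 to 17.8 CPM, against 3.52 and 8.86 CPM, without overlap (LFC 1.62 ± 0.69, edgeR adjusted p 0.112). POT1 had 35.7, 75.3 and 75.9 CPM with 1-NM-PP1, against 8.21 and 56.1 CPM with DMSO, and overlapped (LFC 1.01 ± 1.08, adjusted p 0.573). Of all genes, 6.15% changed in either direction in these PKA-WT cultures. In DMSO, edgeR called 0 of 10 between PKA-AS and PKA-WT (0.0% of all genes, 0 at an unadjusted p under 0.05 and 0 in DESeq2).

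The third comparison sets the species against each other, as the log2 difference of 1-NM-PP1 minus DMSO within each of 4 cultures per species without deletions, on log2 CPM with a prior count of 2, tested with limma over 4806 ortholog pairs. The response differed for 5 of the 10 genes (adjusted p under 0.01), against 33.7% of all pairs. FAA2 changed by -0.43, 0.52, 0.23 and -0.34 in the *S. cerevisiae* cultures and by 3.47, 2.55, 2.01 and 1.78 in those of *K. lactis*. The difference was -2.46 ± 0.38 (SE, adjusted p 0.000229). PXA2 averaged 1.51 ± 0.37 in *S. cerevisiae* and 3.19 ± 0.27 in *K. lactis* (difference -1.68 ± 0.28, limma adjusted p 0.000413). PXA1 averaged 1.55 ± 0.55 and 2.95 ± 0.12 in the same order (difference -1.40 ± 0.30, limma adjusted p 0.00247), a call lost without *S. cerevisiae* culture 1 (-1.21, adjusted p 0.0103) and without the 2017 cultures (-1.30, adjusted p 0.0213). The mRNAs of FAA2 and of the transporter subunits PXA1 and PXA2 thus responded more in *K. lactis*, with no overlap of cultures for any of the 3.

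CAT2 and SPS19 responded more in *S. cerevisiae*. CAT2 changed by 3.53, 2.15, 4.16 and 3.02 in *S. cerevisiae* and by 0.73, 0.82, 1.17 and 0.57 in *K. lactis* (difference 2.39 ± 0.39, limma adjusted p 0.000326). SPS19 averaged 4.55 ± 0.42 in *S. cerevisiae* and 2.53 ± 0.58 in *K. lactis* (difference 2.02 ± 0.36, limma adjusted p 0.000694). For each of the 5 genes, and for FOX2, which limma did not call, the 2-sided exact permutation p was 0.0286, the smallest that 4 cultures against 4 can give. The share of all pairs that reach this value, with no overlap of cultures between the species, was not counted. POT1 changed by 8.51, 8.20, 8.53 and 7.99 in *S. cerevisiae* and by 8.59, 6.89, 5.28 and 4.80 in *K. lactis*, and the difference of 1.92 missed the threshold (limma adjusted p 0.0652). FOX2 (-1.11, adjusted p 0.0160, but -1.34 and 0.0033 with a prior count of 5), POX1 (0.59), ECI1 (-0.59) and PEX11 (0.69) were not called. FOX2 changed by 2.32 to 2.64 in *S. cerevisiae* and by 3.05 to 4.45 in *K. lactis*, without overlap. Species, genome annotation and library set cannot be told apart here.

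**Figure D4:**
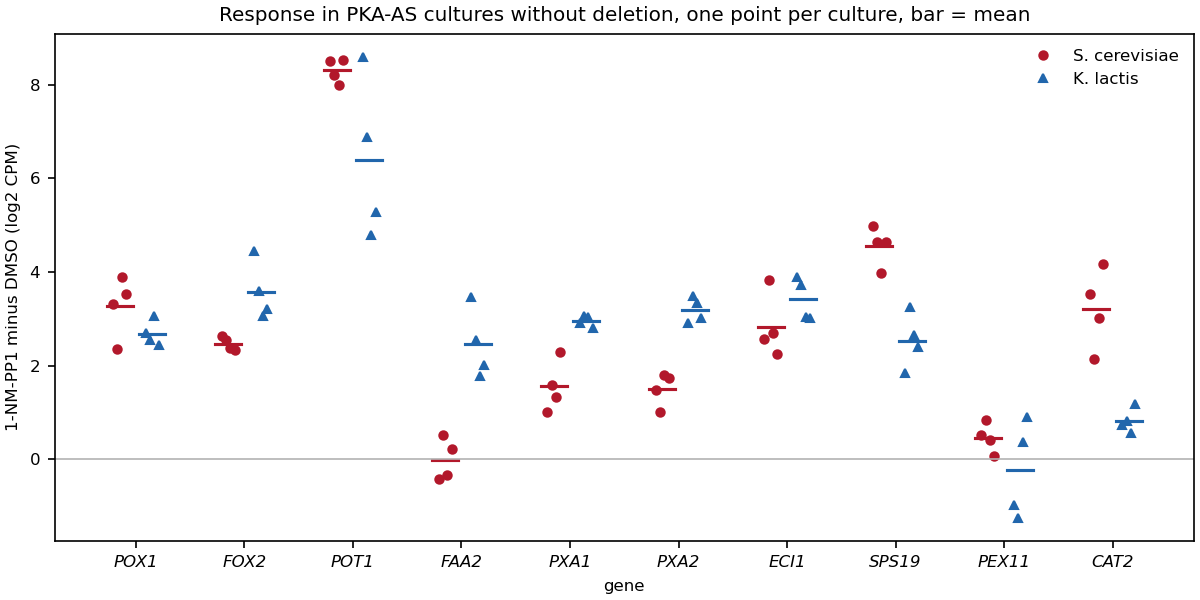
Response of each of the 10 genes (x axis) to PKA inhibition in PKA-AS cells without deletions, as log2 CPM in 1-NM-PP1 minus log2 CPM in DMSO within each culture (y axis, prior count 2). Red circles are *S. cerevisiae* cultures, blue triangles are *K. lactis* cultures and bars are means of 4. FAA2 lies around 0 in *S. cerevisiae* and at 1.78 or more in *K. lactis*, and CAT2 at 2.15 or more in *S. cerevisiae* and 1.17 or less in *K. lactis*.

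The other genes of the pathway, from lists chosen with earlier results of these data known, had smaller median LFCs than the 10 without deletions. Of 15 further peroxisomal and fatty acid enzymes tested in *S. cerevisiae* PKA-AS cells without deletions, 2 were activated and 2 repressed, with a median LFC of 0.46, beside 9.72% and 12.5% of all genes, which is about the same share. CTA1, the peroxisomal catalase that removes the peroxide made by Pox1, had an LFC of 3.88 ± 0.65 (adjusted p 1.66e-06), and PCD1, a peroxisomal hydrolase of CoA derivatives, of 3.11 (adjusted p 7.92e-10). Repressed were FAA3, a long-chain acyl-CoA synthetase (LFC -2.12, adjusted p 1.46e-06), and CIT2, the peroxisomal citrate synthase (LFC -2.05, adjusted p 0.000113). In ΔMsn2/4 cells the LFC of CTA1 was -0.16 (adjusted p 0.930) and that of PCD1 2.34 (adjusted p 2.88e-06). In *K. lactis* 4 of 12 were activated and 0 repressed (median 0.74), beside 8.46% and 13.6% of all genes, among them MLS1, a malate synthase (LFC 3.33), LPX1, a peroxisomal lipase (LFC 3.08), and CTA1 (LFC 2.54).

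The carnitine shuttle, which carries the acetyl groups on to the mitochondrion, gave 0 of 4 activated in *S. cerevisiae* without deletions (median 0.27) and 1 of 4 in *K. lactis* (median 1.09), beside 9.72% and 8.46% of all genes. The *K. lactis* gene was YAT1, a carnitine acetyltransferase outside the peroxisome (LFC 3.66, adjusted p 3.1e-07), beside an LFC of 0.91 in *S. cerevisiae* (adjusted p 0.00668). In *K. lactis* ΔRph1/Gis1 3 of 4 were activated (median 3.65), namely YAT1 (LFC 5.31), the carnitine carrier CRC1 (LFC 4.28) and YAT2 (LFC 3.02), beside 6.62% of all genes. With both orthologs deleted 3 of 4 were activated (median 3.32), beside 4.67% of all genes, and in ΔMsn2/4 1 of 4 (median 1.70), beside 7.32%. CAT2 was activated in the same 2 strains.

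Of the peroxins, which build the peroxisome and import its enzymes, 3 of 28 tested were activated in *S. cerevisiae* (median 0.62), a share close to the 9.72% of all genes. PEX18, a co-receptor for import of thiolase, had an LFC of 6.26 ± 0.70 (adjusted p 2.81e-10) and of 3.85 in ΔMsn2/4 (adjusted p 8.81e-05), followed by PEX30 (2.15) and PEX29 (2.09), which shape the endoplasmic reticulum and peroxisome number. In *K. lactis* 3 of 25 were activated, PEX34 (LFC 2.82), PEX13 (2.48) and PEX28 (2.19), and the shared ortholog of PEX18 and PEX21 was repressed (LFC -2.57, adjusted p 4.92e-06), with a list median of 0.83. Of all *K. lactis* genes 8.46% were activated and 13.6% repressed. Of 6 regulators tested in *S. cerevisiae* 0 were activated, with ADR1 weakly activated (LFC 1.87, adjusted p 0.00417), and OAF1 and PIP2 at 0.51 and 0.47 (adjusted p 0.470 and 0.399). In *K. lactis* the shared ortholog of OAF1 and PIP2 was weakly activated (LFC 1.20, adjusted p 0.000665, and 1.75 in both strains without the Rph1/Gis1 ortholog), and ADR1 stood at 1.05 (adjusted p 0.0334).

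Across the 16 *S. cerevisiae* groups, the Pearson correlation of a member's mean log2 CPM with the mean of all members was 0.969 for POT1, 0.967 for CAT2, 0.948 for SPS19, 0.947 for FOX2 and 0.921 for ECI1. It was 0.867 for PXA1, 0.768 for PXA2, 0.570 for FAA2 and 0.0145 for PEX11, and POX1 was below the level for ranking. The most alike of 4942 genes ranked were CNL1 (0.982), YKL091C (0.981), OXR1 (0.981), PEX18 (0.980) and NTH2 (0.979). Across the 10 *K. lactis* groups the members gave 0.993 for FOX2 and POT1, 0.989 for PXA1, 0.986 for POX1, 0.976 for FAA2, 0.939 for PXA2, 0.930 for ECI1, 0.899 for CAT2, 0.876 for SPS19 and 0.394 for PEX11. The orthologs most alike there, of 4795 genes ranked, were those of SIP18 and GRE1 (1 gene, 0.998), PRM10 (0.998), MET28 (0.996), KLLA0F12628g (0.993) and YDR262W (0.992). Each member was part of the mean it was correlated with, and the other genes ranked were not. These groups share the contrast of treated and control cultures, and the values are descriptions without a test.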

How the data were processed

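Total RNA from 56 *S. cerevisiae* and 35 *K. lactis* cultures was sequenced as 3′ tags (QuantSeq FWD). The authors aligned the reads to R64 and ASM241v1 on the Bluebee platform and counted them per gene with htseq (intersection-nonempty) on annotations extended at the 3′ end, and deposited raw counts per library. The authors also deposited means and variances of rlog values, on a log2 scale, of which only the paired gene names were used, and tables of their own fold changes and p-values for 1-NM-PP1 over DMSO, which were not used. Of 60 *S. cerevisiae* libraries, 59 were used, since the labels mark 1 repeat as dropped, and repeat libraries were summed into their culture. Another 94 columns of deposited counts, under numbers that match no sample title, were not used. Rows that name no gene (no feature 3.24 to 11.3%, ambiguous 2.18 to 4.81% and multiple alignments 3.52 to 21.1% in *S. cerevisiae*; 9.21 to 14.5%, 0.051 to 0.115% and 0.641 to 2.80% in *K. lactis*) stayed out of all totals.

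Genes that reached 2 counts in 3 or more samples were fitted per species with edgeR 4.0.16 (quasi-likelihood, TMM, 1 combined factor over all groups, R 4.3.3), with Benjamini-Hochberg adjustment over all genes tested. A gene was activated above an LFC of 2 and repressed below -2 at an adjusted p under 0.01, and weakly so past 1 or -1. SE was derived from the LFC and its F value. The edgeR p-values rest on the spread between cultures of the same strain and treatment, pooled over all groups of the species. In the main fit the portions of a divided culture were taken as independent. The species difference used limma 3.58.1 on log2 CPM (prior count 2) and an exact permutation test in R. The exact counting intervals used scipy 1.17.1. DESeq2 1.42.0 was an alternative. The others were RLE scaling, other filters, only the groups compared, no 2017 cultures, no repeat libraries, other prior counts, a replicate block and each culture left out. The fits were tested on simulated data. Sequences came from RefSeq R64. Promoters of 300 bases were written but are not printed.

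The labels say that each culture was divided before treatment, so numbers pair the portions: over 28 *S. cerevisiae* pairs the deviations from group means correlated at -0.226 to 0.828 (median 0.508, 24 over 0.1) and over 17 *K. lactis* pairs at -0.324 to 0.699 (median 0.472, 13 over 0.1). The members and lists were chosen with earlier results of these data known. Named are all members, the deleted genes, OAF1, PIP2 and ADR1, up to 3 genes per list and direction past an LFC of 2 or -2 in PKA-AS cells without deletions with a mean of at least 10 counts, and the 5 genes most like the members. YAT1 in *S. cerevisiae* and CRC1 and YAT2 in *K. lactis* were named after their values were seen.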

Additional observations from a re-analysis of the deposited data

Results flagged for a closer look

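Among the levels of single cultures, 9 of 140 groups of 4 held a culture whose gap to the next exceeded Dixon's 95% limit, where chance gives 5%. In *K. lactis* ΔMsn2/4 with 1-NM-PP1, culture 3 was such a culture for FAA2 (3377 CPM), CAT2 (82.5 CPM) and PXA2 (18 CPM), and it is the library that correlated least with its group. In *K. lactis* DMSO cultures the gaps were found for POT1 in ΔRph1/Gis1 culture 3 (138 CPM) and, without deletions, for PXA1 in culture 1 (6.13 CPM) and PEX11 in culture 3 (3.01 CPM). In *S. cerevisiae* DMSO cultures they were found for FOX2 in culture 3 (10.8 CPM) and ECI1 in culture 1 (25.1 CPM) with all deletions, and for CAT2 in culture 3 without deletions (1.79 CPM).

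The edgeR interaction was called for POT1 (-5.62) and FOX2 (-2.26) with ΔMsn2/4 in *S. cerevisiae*, 2 of 10 against 8.57% of all genes. It was called for FOX2 with all deletions there (-1.91), 1 of 10 against 14.7%. In *K. lactis* it was called for ECI1 with both orthologs deleted (-1.99), 1 of 10 against 1.04%. Each of these calls was lost when only the groups compared were fitted, and also when certain single cultures were left out. The response to 1-NM-PP1 in PKA-AS cells without deletions differed between the species for 5 of 10 genes, against 33.7% of all ortholog pairs. These were FAA2 (-2.46), PXA2 (-1.68), PXA1 (-1.40), SPS19 (2.02) and CAT2 (2.39), as *S. cerevisiae* minus *K. lactis* in limma.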

How the results depend on the processing

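Of 593 values of single genes under other settings, 557 kept their direction and their side of the threshold, 16 lost the call, 20 gained one and 0 reversed. With single cultures left out, 644 of 716 kept both and 72 lost the call. Counts of the 10 genes stayed within 1.5 times in 250 of 268 cases and moved in 18, as follows. Fitting only the groups compared gave, in *S. cerevisiae*, 1 activated in ΔMsn2/4 (2 in the fit of all groups), 0 interactions with ΔMsn2/4 (2), 3 with all deletions (1) and 2 lower in treated ΔMsn2/4 (4). In *K. lactis* it gave 1 interaction with ΔRph1/Gis1 (0), 0 with both deletions (1), 0 for DMSO with both deletions (1) and 0 for treated ΔMsn2/4 (1). Without the 2017 cultures the *S. cerevisiae* interactions were 1 with ΔMsn2/4 and 0 with all deletions, and *K. lactis* DMSO ΔRph1/Gis1 gave 0. DESeq2 gave 2 *S. cerevisiae* interactions with all deletions, 1 and 2 *K. lactis* interactions with ΔRph1/Gis1 and both deletions, and 2 for DMSO ΔRph1/Gis1. RLE gave 0 for treated *K. lactis* ΔMsn2/4. A replicate block gave 4 *S. cerevisiae* interactions with all deletions (1) and 1 in treated *K. lactis* with both deletions (0; SPS19, LFC 1.39, adjusted p 0.00657). In treated *S. cerevisiae* ΔMsn2/4 against no deletion it added SPS19 (LFC -1.50, adjusted p 4.98e-05) and POX1 (LFC -1.67, adjusted p 0.00647). Between strains the block rests on a shared number alone, which the sources used here do not tie to a day or batch. It moved no other count past 1.5 times.

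With each culture left out, the activated in *S. cerevisiae* numbered 6 to 6 without deletions, 1 to 2 in ΔMsn2/4, 5 to 6 in ΔRph1/Gis1 and 2 to 3 with all deletions, the interactions 1 to 2 (ΔMsn2/4) and 0 to 1 (all deletions), and the treated comparisons 2 to 4 (ΔMsn2/4) and 3 to 5 (all deletions). In *K. lactis* the activated numbered 8 to 8 without deletions, 7 to 8 in ΔMsn2/4, 8 to 8 in ΔRph1/Gis1, 7 to 8 with both deletions and 0 to 1 in PKA-WT (1 without DMSO culture 2). The interaction with both deletions, both DMSO comparisons and treated ΔMsn2/4 each gave 0 to 1, and the species difference 4 to 6. The causes were not tested. Depth limits POT1 and POX1 in *S. cerevisiae* DMSO cultures, where 0 to 4 counts a culture were common.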
